A study of Mus musculus with 96 samples.

Results

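The aryl hydrocarbon receptor (AhR) gene battery was followed here as 9 genes of the 40202 in the count files: the receptor gene Ahr and its partner Arnt, the repressors Ahrr and Tiparp, and the target genes Cyp1a1, Cyp1b1, Aldh3a1, Nqo1 and Ugt1a6a. The genes were taken by symbol and were selected with measured values of the same contrast in view, chiefly the higher Aldh3a1 level after treatment. All values of that contrast are therefore a description, with no test. Single cells of C10, a line from mouse lung labelled as alveolar type II epithelial, gave 1 library each, 96 in all. The groups were 48 untreated control cells and 48 cells given RO-3306, known as a CDK1 inhibitor, at a labelled dose of 10 nM for 36 h. No other agent or allele is named, and all cells shared the same growth medium. Values rest on cells that reached 50000 counts and 1000 detected genes, which left 29 control and 37 RO-3306 cells.

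The receptor is a ligand-activated transcription factor of the bHLH-PAS family. Without ligand it waits in the cytosol bound to the chaperone HSP90 and its cochaperone p23. With a ligand such as dioxin, polycyclic aromatic hydrocarbons or tryptophan derivatives it enters the nucleus, pairs with ARNT and binds response elements with the core GCGTG. Its targets oxidise and conjugate xenobiotics: CYP1A1 and CYP1B1 are monooxygenases, ALDH3A1 oxidises aldehydes, NQO1 reduces quinones and UGT1A6 adds glucuronic acid. AHRR competes with the receptor for ARNT, and TIPARP, an ADP-ribosyltransferase, lowers receptor activity, so both form negative feedback loops. In lung, CYP1A1 is the classical marker of exposure to smoke and other combustion products. NQO1 is also a classical target of NRF2, the transcription factor of the oxidative stress response.

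The promoters of these genes are shown first because the receptor acts through a short sequence core that a reader can look for. Of the 9 genes, all but Aldh3a1 and Ahr, so 7, matched the RefSeq promoter table, which holds 250 bases before and 50 after each start. Its build is GRCm38.p6, whereas the count files use GRCm39, so its positions differ from the gene positions given further on. The 5 promoters printed are those of both repressors and of the target genes Cyp1a1, Cyp1b1 and Nqo1, each 5′ to 3′ on the gene's strand, with GCGTG or its reverse complement CACGC in capitals.
Cyp1a1: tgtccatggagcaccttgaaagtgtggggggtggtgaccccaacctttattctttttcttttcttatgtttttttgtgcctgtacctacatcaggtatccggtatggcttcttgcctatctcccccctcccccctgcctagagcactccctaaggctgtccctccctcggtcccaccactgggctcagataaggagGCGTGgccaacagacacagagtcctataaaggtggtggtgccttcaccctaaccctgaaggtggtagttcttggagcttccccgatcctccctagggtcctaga
Cyp1b1: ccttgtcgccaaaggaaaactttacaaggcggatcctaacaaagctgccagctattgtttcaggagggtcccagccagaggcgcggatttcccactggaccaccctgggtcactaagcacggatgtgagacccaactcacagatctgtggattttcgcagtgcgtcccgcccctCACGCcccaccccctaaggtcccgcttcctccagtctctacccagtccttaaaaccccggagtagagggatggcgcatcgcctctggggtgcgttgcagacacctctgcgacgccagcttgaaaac
Nqo1: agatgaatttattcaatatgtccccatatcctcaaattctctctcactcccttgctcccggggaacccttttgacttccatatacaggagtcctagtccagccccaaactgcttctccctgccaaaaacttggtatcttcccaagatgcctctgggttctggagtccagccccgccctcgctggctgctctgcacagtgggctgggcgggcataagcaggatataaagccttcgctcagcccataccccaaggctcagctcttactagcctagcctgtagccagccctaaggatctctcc
Tiparp: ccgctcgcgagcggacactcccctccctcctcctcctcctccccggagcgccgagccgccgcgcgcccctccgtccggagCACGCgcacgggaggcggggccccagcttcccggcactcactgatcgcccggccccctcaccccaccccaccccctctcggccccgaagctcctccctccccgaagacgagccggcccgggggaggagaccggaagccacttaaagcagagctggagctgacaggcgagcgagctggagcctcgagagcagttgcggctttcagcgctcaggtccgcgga
Ahrr: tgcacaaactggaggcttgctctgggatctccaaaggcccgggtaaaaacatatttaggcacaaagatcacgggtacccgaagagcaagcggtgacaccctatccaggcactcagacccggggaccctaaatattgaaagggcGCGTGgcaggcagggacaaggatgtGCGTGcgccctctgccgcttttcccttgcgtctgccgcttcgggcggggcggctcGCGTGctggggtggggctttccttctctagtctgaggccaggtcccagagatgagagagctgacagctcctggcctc
They lie at chr9:57697363-57697662 on the plus strand (Cyp1a1), chr17:79715012-79715311 on the minus strand (Cyp1b1), chr8:107403156-107403455 on the minus strand (Nqo1), chr3:65528197-65528496 on the plus strand (Tiparp) and chr13:74292282-74292581 on the minus strand (Ahrr).

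The core GCGTG, searched on both strands, occurred once in Cyp1a1, 54 bases before the start (position -54), once in Cyp1b1 at -76 and once in Tiparp at -170. Ahrr held 3 copies, at -107, -82 and -27. Nqo1 and Ugt1a6a held 0 in this window, and Arnt held 1, at -29. Of all 32851 promoters of 300 bases in the table, 32.4% held at least 1 copy, 11.1% at least 2 and 3.91% at least 3. The core of the antioxidant response element bound by NRF2, TGACNNNGC, was found on either strand in 12.4% of all promoters, 2 times in Arnt and in none of the other 6 genes. These matches describe letters in a short window only.

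Library depth differed between the groups. Kept control cells held 59979 to 6457215 counts (median 1753427) and kept RO-3306 cells 295005 to 5321880 (median 2234309), with medians of 5177 and 6951 genes with a count. Levels are given in CPM, the summed counts of a group scaled to a total of 1e6, 66034079 in control and 92828839 in RO-3306, with exact Poisson intervals at the 95% level. Intervals and limits of levels and ratios cover only the counting of reads pooled over cells, and not the spread between cells. The reads carry no molecular identifiers, so copies from amplification are counted as separate reads. The labels name no culture, so each treatment counts as 1 sample and no p-value was computed. The labels also give each cell a letter from A to D whose meaning is not stated, and these 4 lettered sets served as a look at the steadiness of a difference, not as replicates. A few cells stand apart. Control cell D10 was the shallowest kept cell, with 59979 counts but 4719 genes. RO-3306 cell B3 had 56.0% mitochondrial counts, against medians of 3.40% and 4.42%. Control cell C3 had the fewest genes of any kept cell, 2109. Just outside the limits lay RO-3306 cell D5, with 773537 counts but 943 genes. Of the alveolar type II markers, Sftpa1, Sftpc, Sftpd, Slc34a2 and Napsa had 0 counts in every kept cell, and the 10 markers summed to 23.5 CPM (control) and 27.7 CPM (RO-3306). Most of these sums came from Lpcat1, at 13.5 and 18.7 CPM, and Abca3, at 9.38 and 5.21 CPM. The 6 mesenchymal markers summed to 5579 and 2523 CPM, so the labelled cell type is not borne out by most of its defining genes.

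Of the 9 genes, 7 had any count and 6 reached a mean of 5 CPM over the groups. Aldh3a1 was the 1 gene called higher and Cyp1b1 the 1 gene called lower. A call here means a log2 ratio of at least 1 in size, taken as RO-3306 over control with 1 CPM added to both, and no change of sign among the 4 lettered sets. Of the 9374 genes that reached 5 CPM on average, 7.23% were called higher and 6.43% lower. Nqo1, Ahr and Arnt passed the size limit but their sign was not the same, or was 0, in at least 1 set. Tiparp missed both limits. The median log2 ratio was -0.39 over the 6 genes and -0.22 over all 9374. As the genes were chosen on this contrast, nothing is read from these shares.

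**Figure D1:**
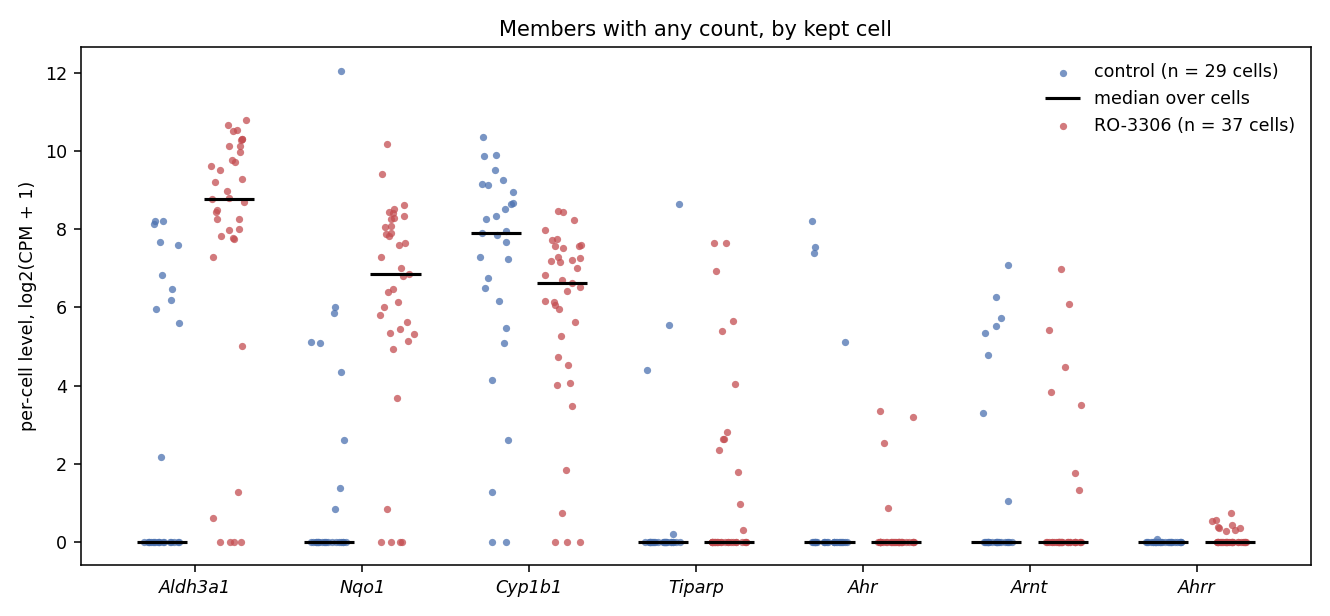
Per-cell levels of the 7 genes with any count, as log2(CPM + 1), for 29 control and 37 RO-3306 cells. Each point is 1 cell and each bar a median over cells. The Aldh3a1 and Nqo1 medians lie at 0 in control and at 436 and 116 CPM in RO-3306, while the Cyp1b1 median is higher in control.

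Ahr itself was found in few cells of either group. The gene (chr12:35547978-35584988, minus strand, GRCm39) was detected in 4 of 29 control cells (13.8%, exact Clopper-Pearson interval 3.89 to 31.7%) and, after RO-3306, in 4 of 37 (10.8%, 3.03 to 25.4%). Control cells D9, A3, D10 and B4 held 294, 185, 167 and 33.6 CPM, and the RO-3306 cells with a count held 0.826 to 9.16 CPM. All 4 control cells with a count thus lay above every RO-3306 cell, while the medians were 0 in both groups. The value in D10 rests on 10 counts, where D9 had 962 and A3 had 1033. Summed levels were 33.6 CPM (32.3 to 35.1) for control and 0.743 CPM (0.578 to 0.941) after RO-3306, and their log2 ratio was -4.31. The difference in sums rests on control cells A3, D9 and B4, which held 99.6% of the control counts, and not on how many cells had the gene. Set C had 0 Ahr counts in both groups.

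Arnt, which encodes the obligate partner of the receptor, was also sparse. The gene (chr3:95341674-95404551, plus strand) was detected in 8 of 29 control cells (27.6%) and, after RO-3306, in 8 of 37 (21.6%). The per-cell median was 0 in both groups and the highest cells were alike, 135 CPM in control A11 and 126 CPM in RO-3306 A12. The summed levels of 18.3 CPM (17.3 to 19.4) for control and 6.25 CPM (5.75 to 6.78) after RO-3306 gave a log2 ratio of -1.41. The sets did not share a sign: the log2 ratio was 0.68 in set A, -3.32 in set B and 1.96 in set C, and set D held 0 counts in either group. Without set B the log2 ratio was -0.28.

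Tiparp, the feedback repressor (chr3:65435868-65462939, plus strand, with 3.58% of its span shared with another gene), was found in more RO-3306 cells. It had counts in 4 of 29 control cells (13.8%, 3.89 to 31.7%) and, after RO-3306, in 13 of 37 (35.1%, 20.2 to 52.5%). At a matched depth of 639000 reads per cell, to which each cell was thinned at random, these were 2 of 25 (8%) and 12 of 34 (35.3%). The intervals of the shares overlapped at both depths. Summed levels were 13.03 CPM (12.2 to 13.9) for control and 20.6 CPM (19.7 to 21.5) after RO-3306, with a log2 ratio of 0.62. Single cells carried both sums. Control C12 alone, at 400 CPM, held 81.5% of the control counts, and RO-3306 D6, at 202 CPM, held 46.8% of the RO-3306 counts. Without control C12 the levels were 2.47 and 20.6 CPM, 8.34-fold higher in RO-3306. Without RO-3306 D6 they were 13.03 and 11.5 CPM, a log2 ratio of -0.17. The log2 ratio was 3.48, 2.48 and 5.43 in sets A, B and D and -5.01 in set C, where C12 lies.

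Ahrr, the other repressor (chr13:74359237-74440450, minus strand), was close to the limit of counting. It had 0.14 counts in 1 control cell, a fraction of a read placed at several sites, and 10.5 counts over 9 of 37 RO-3306 cells. No cell held more than 2 counts, and the highest level was 0.679 CPM, in RO-3306 A2. The summed levels were 0.00212 CPM for control and 0.113 CPM (0.0517 to 0.198) after RO-3306, against a limit of 0.0454 CPM that 3 counts would give in control. Counts came from all 4 lettered sets in RO-3306. After thinning, 0 of 25 control and 1 of 34 RO-3306 cells kept a count, so no difference in the share of cells was detectable at matched depth. Its 3 response element cores in the window shown above stand beside this near-zero level.

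Cyp1a1, the classical target of the receptor (chr9:57595211-57611107, plus strand), had 0 counts in all 66 kept cells. Taking 3 counts, or 3 cells, as the limit that a count of 0 allows gives up to 0.0454 CPM for control and 0.0323 CPM after RO-3306, and up to 10.3% and 8.11% of cells with a count. The exact two-sided upper bounds at the 95% level are 0.0559 and 0.0397 CPM and 11.9% and 9.49% of cells. Its span overlaps no other gene in the annotation, so no overlap kept its reads from being counted. Ugt1a6a (chr1:88062531-88147724, plus strand) also had 0 counts, but 100% of its span lies within the spans of 9 other genes, and by the defaults of the counting tool reads over several gene spans are left out. Its zero therefore carries no information on the gene. At the UGT1 locus 8 of 9 genes were at 0, and Ugt1a10 had 2.88 CPM in control, from 1 cell.

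Cyp1b1, the other cytochrome P450 target, was present in nearly all cells and at a lower level after treatment. The gene (chr17:80014369-80022490, minus strand) was detected in 27 of 29 control cells (93.1%, 77.2 to 99.2%) and, after RO-3306, in 34 of 37 (91.9%, 78.1 to 98.3%). Control cells ran from 0 to 1309 CPM (B12) with a median of 238 CPM, and RO-3306 cells from 0 to 355 CPM (B4) with a median of 97.5 CPM. The groups overlapped over the lower part of the range, and 11 control cells lay above the highest RO-3306 cell. In 69.8% of the 1073 pairs of a control and an RO-3306 cell the control cell was higher, and in 29.6% the RO-3306 cell was. The summed levels were 346 CPM (342 to 351) and 112 CPM (109 to 114), a ratio of 0.322 (0.315 to 0.330) and a log2 ratio of -1.62. The sign of the summed ratio was negative in every set, at -1.68, -1.64, -1.15 and -0.86 in A to D. Per-cell medians were lower after RO-3306 in sets A, B and D. In set C they were alike, at 70.3 CPM in control and 71.0 CPM after RO-3306. Over all sets together the shift was thus one of level among cells with the gene, with a like share of cells having a count. Control B4 held 26.9% of the control counts, and without it the log2 ratio was -1.32.

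The length of the mRNA moved with this ratio. Over the tested genes with a known mRNA length the median log2 ratio ran from 0.26 in the shortest of 10 length classes to -0.86 in the longest. Cyp1b1, at 5128 nt, falls in the ninth class (up to 6655 nt), whose median was -0.85, and its ratio less that median was -0.78, under the size that a call needs. Ahr, at 5548 nt, falls in the same class and was at -3.47 less the median. Aldh3a1 at 1729 nt and Nqo1 at 1553 nt fall in the class from 1272 to 1752 nt, whose median was 0.12. The part of length in these differences was not tested.

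Aldh3a1, the aldehyde dehydrogenase of the battery (chr11:61099336-61109244, plus strand), differed between the groups both in how many cells had it and in how much each cell had. It was detected in 11 of 29 control cells (37.9%, 20.7 to 57.7%) and, after RO-3306, in 33 of 37 (89.2%, 74.6 to 97.0%), and at matched depth in 11 of 25 (44.0%, 24.4 to 65.1%) and 31 of 34 (91.2%, 76.3 to 98.1%). Control cells ran from 0 to 295 CPM (A7 and D8) with a median of 0. RO-3306 cells ran from 0 to 1790 CPM (A2), with a median of 436 CPM and quartiles of 220 and 1010 CPM. The distributions overlapped, but 24 RO-3306 cells lay above the highest control cell. Levels over 100 CPM were reached in 6 control and 30 RO-3306 cells. Among cells with a count alone the medians were 112 CPM in 11 control cells and 508 CPM in 33 RO-3306 cells. At matched depth the median over all cells was 423 CPM in RO-3306 and 0 in control.

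The summed Aldh3a1 levels, 61.9 CPM (60.0 to 63.8) and 650 CPM (645 to 655), are in a ratio of 10.5 (10.2 to 10.8), a log2 ratio of 3.37. By set, control levels were 58.8, 51.2, 73.0 and 97.1 CPM and RO-3306 levels 651, 388, 701 and 848 CPM in A to D. Set B was the lowest in both groups and set D the highest. The log2 ratio was 3.45, 2.90, 3.25 and 3.11 in A to D. No single cell carried the sums, with a top share of 17.6% in control (D8) and 10.5% in RO-3306 (D8). Leaving out each cell in turn moved the log2 ratio between 3.25 and 3.59. In 15 of 44 cells with the gene the count held a fraction, a sign that some reads were placed at several sites. A copy elsewhere in the genome may therefore share part of them. Fractions also occurred in 14 of 42 cells with Nqo1, 10 of 61 with Cyp1b1 and 8 of 17 with Tiparp, but in 0 of 8 with Ahr.

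The 4 RO-3306 cells with 0 Aldh3a1 counts (A11, B3, B6 and B7) were not all shallow. They held 295005 to 2493509 counts and 3178 to 7608 genes. Nqo1 was present in 3 of them and Cyp1b1 in 3. B3 is the cell with 56.0% mitochondrial counts.

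Nqo1, the quinone reductase (chr8:108114856-108139012, minus strand), was found in shares of cells close to those of Aldh3a1. It was detected in 9 of 29 control cells (31.0%, 15.3 to 50.8%) and, after RO-3306, in 33 of 37 (89.2%, 74.6 to 97.0%). At matched depth these were 6 of 25 (24.0%, 9.36 to 45.1%) and 30 of 34 (88.2%, 72.5 to 96.7%). RO-3306 cells ran from 0 to 1169 CPM (B10) with a median of 116 CPM. Control cells had a median of 0, and all but 1 lay at or below 63.6 CPM. The exception was control C3, at 4266 CPM, above every RO-3306 cell, and 24 RO-3306 cells lay above the second highest control cell.

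Control C3 decides the size and, in its set, the direction of the Nqo1 difference. It held 2579.5 of the 3270.5 control counts (78.9%). The summed levels were 49.5 CPM (47.8 to 51.2) for control and 193 CPM (190 to 196) after RO-3306, a ratio of 3.90 (3.76 to 4.05) and a log2 ratio of 1.94. Without C3 the control level was 10.6 CPM, the ratio 18.3 and the log2 ratio 4.07. By set, control levels were 6.70, 16.0, 322 and 15.2 CPM and RO-3306 levels 128, 176, 232 and 208 CPM in A to D. The log2 ratio was 4.07, 3.38 and 3.69 in sets A, B and D and -0.47 in set C, where C3 was the 1 control cell of 6 with the gene. C3 is also the kept cell with the fewest genes, and at 604699 counts it is too shallow to enter the thinned comparison.

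**Figure D2:**
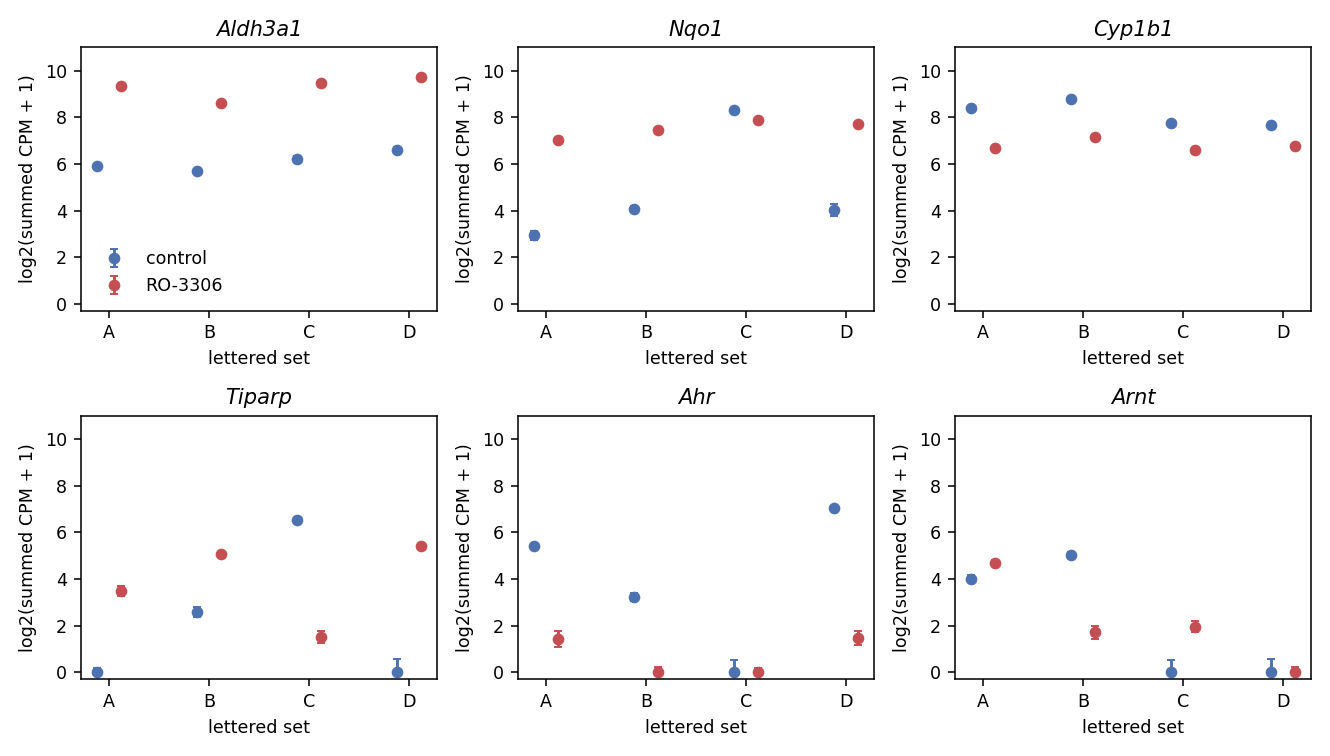
Summed levels of 6 genes by lettered set, as log2(summed CPM + 1), for control and RO-3306, with exact 95% Poisson intervals (often smaller than the point). Aldh3a1 is higher and Cyp1b1 lower in RO-3306 in all 4 sets, while Nqo1 and Tiparp turn in set C and Arnt has no common sign.

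**Figure D3:**
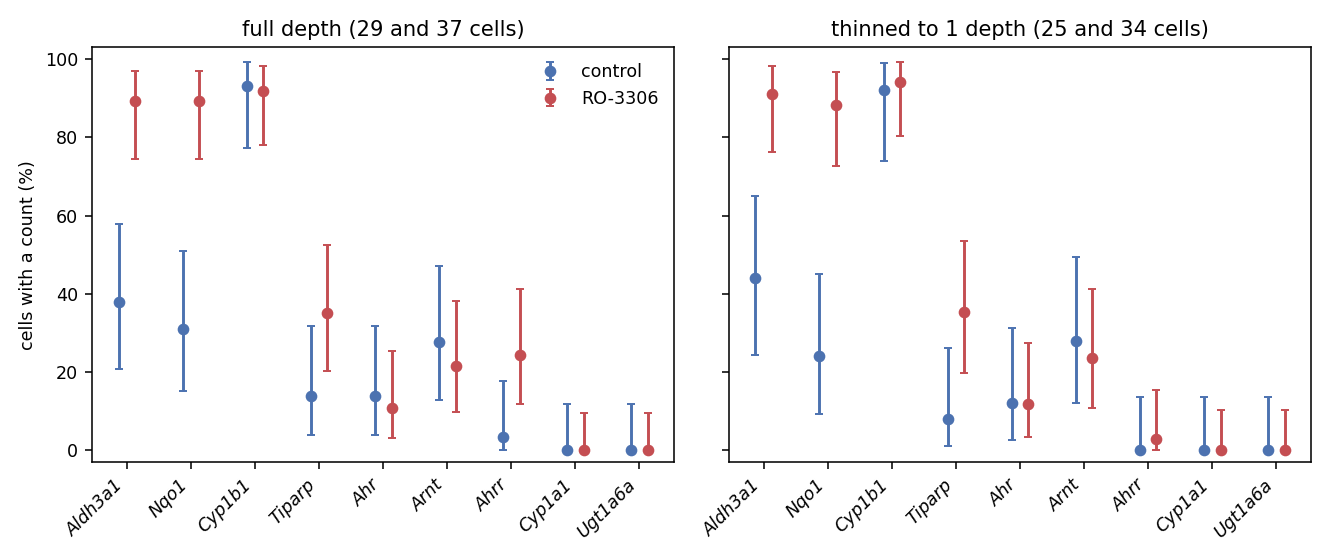
Percent of kept cells with a count for all 9 genes, at full depth and after thinning to 639000 reads, with exact 95% Clopper-Pearson intervals. The intervals of the groups are apart for Aldh3a1 and Nqo1 at both depths and overlap for the other 7 genes.

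Aldh3a1 and Nqo1 were each present in 33 of 37 RO-3306 cells, so a large overlap follows from these shares alone. Whether the 2 genes occurred together beyond their shares was not tested. Of 37 RO-3306 cells 30 had both, 3 had Aldh3a1 alone, 3 had Nqo1 alone and 1 had neither. In control 3 of 29 cells had both, 8 had Aldh3a1 alone, 6 had Nqo1 alone and 12 had neither. Control C3, with its high Nqo1, had 0 Aldh3a1 counts, and control A7 and D8, with the highest Aldh3a1, had 0 Nqo1 counts. RO-3306 A2, the highest Aldh3a1 cell at 1790 CPM, had 29.5 CPM of Nqo1, and the highest Nqo1 cell, B10, had 449 CPM of Aldh3a1.

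Among RO-3306 cells the levels of these genes were only weakly related. Across 34 thinned cells Spearman's rho was 0.19 for Aldh3a1 with Nqo1, -0.12 for Aldh3a1 with Cyp1b1 and 0.09 for Cyp1b1 with Nqo1, and Pearson's r was 0.14, -0.14 and 0.16. At full depth in 37 cells rho was 0.28, 0.06 and 0.19. These are descriptions over cells of 1 sample that share depth and library preparation. In control fewer than 2 of the genes were detected in 50% or more of the cells, so no such value is given. High Aldh3a1 cells were thus not reliably high in Nqo1 or low in Cyp1b1. Aldh3a1 levels had a rho of 0.16 with the number of genes detected and -0.26 with the mitochondrial share.

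**Figure D4:**
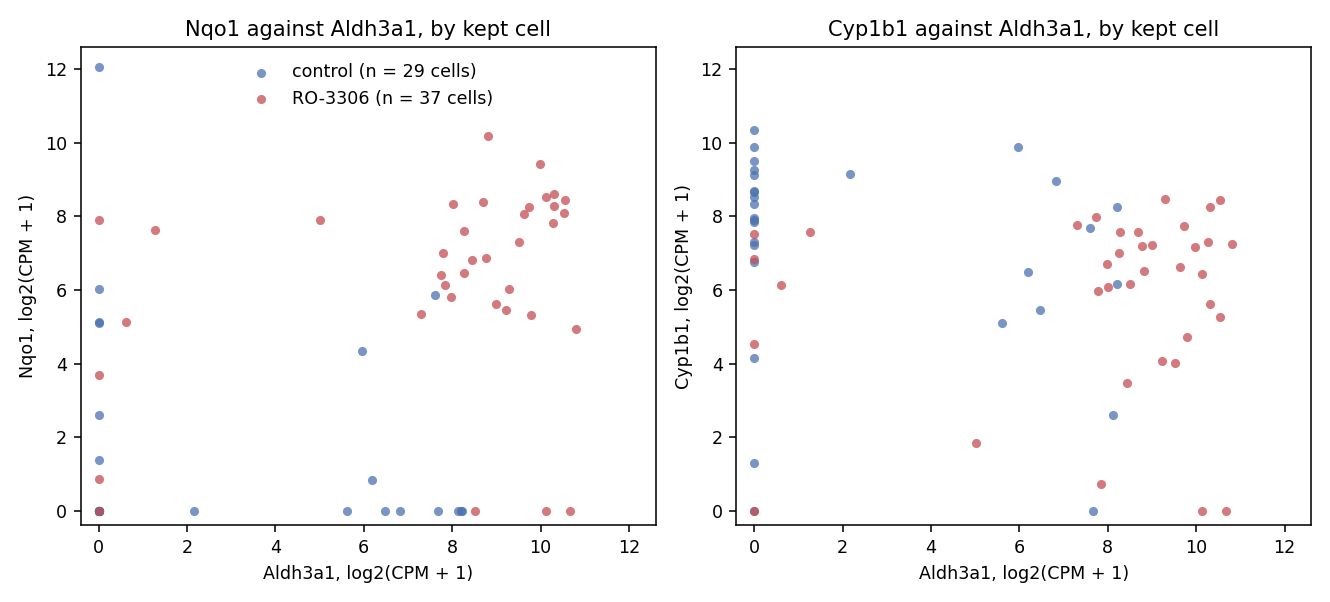
Nqo1 (left) and Cyp1b1 (right) against Aldh3a1 by kept cell, all as log2(CPM + 1), for 29 control and 37 RO-3306 cells. In RO-3306 30 cells have both Aldh3a1 and Nqo1, without a clear order among them, and control cells lie mostly along the axes for Nqo1.

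The cells with Ahr counts did not stand out for target genes in a common way. In RO-3306 all 4 cells with an Ahr count also had Aldh3a1 counts, as did 29 of the 33 cells without one. In control 1 of the 4 cells with an Ahr count had Aldh3a1 counts, as did 10 of the other 25. All 4 had Cyp1b1 counts in each group. Over all 9 genes, RO-3306 cells most often had 4 with a count (14 cells) and at most 6 (1 cell), and control cells most often had 1 or 3 (9 cells each).

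The genes whose levels followed each member most closely across the 34 thinned RO-3306 cells were taken from 4702 genes detected in 50% or more of these cells and with a mean of at least 20 CPM. For Aldh3a1 they were Ccnb1, a mitotic cyclin (rho 0.69), Lbp, which encodes the lipopolysaccharide binding protein (0.61), and Spp1, which encodes osteopontin (0.60). For Nqo1 they were Ciapin1, of cytosolic iron-sulfur assembly (0.71), Sugt1, an HSP90 cochaperone (0.64), and Polr3k, a subunit of RNA polymerase III (0.63). For Cyp1b1 they were Clk3, a kinase of splicing factors (0.65), Traf2, a signalling adaptor (0.59), and Smyd5 (0.57). None of the 9 genes was among them, and at full depth in 37 cells these rho values were 0.43 to 0.72. The highest of 4702 values in 34 cells are picked as extremes. Of the top gene for each member, Ccnb1 had a summed level of 245 CPM without and 249 CPM with treatment. Ciapin1 was at 66.9 and 145 CPM and Clk3 at 17.1 and 38.8 CPM.

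Transcripts of the chaperones that hold the receptor in the cytosol were detected in both groups. In the list of 7 genes of the receptor complex, which includes Ahr, Arnt and Ahrr, 5 reached 5 CPM, 0 were called in either direction and the median log2 ratio was -0.69. Hsp90ab1, a cytosolic HSP90 gene, was at 3037 CPM without and 1882 CPM with RO-3306 (log2 ratio -0.69), Hsp90aa1 at 587 and 471 CPM, and Ptges3, which encodes p23, at 688 and 508 CPM. All 3 chaperone genes had lower summed levels after treatment, by less than the size of a call. Of 9 coregulators, 0 were called in either direction, 2 had a positive and 7 a negative log2 ratio, and the median was -1.18. Of 4 other ARNT partners only Hif1a, the hypoxia-inducible subunit, reached the minimum, at 5.82 and 8.80 CPM.

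Of 15 other genes reported as targets of the receptor, 10 reached 5 CPM, 1 was called higher, 1 lower and the median log2 ratio was -0.24. Gsta1, a glutathione transferase that detoxifies electrophiles, was at 2.71 CPM without and 373 CPM with RO-3306 (log2 ratio 6.66), a value that near-identical family members could share. Slc7a5, a large neutral amino acid transporter, was at 52.5 and 14.5 CPM (log2 ratio -1.79). Cyp1a2, the sister gene of Cyp1a1, and Ido1, an enzyme of tryptophan breakdown, were at 0 in every kept cell. Ugt1a6b was at 0 too, but it belongs to the UGT1 locus of overlapping gene spans, so nothing is read from its zero. Targets of the receptor therefore lay on both sides of the median of all genes. Of all 9374 tested genes 7.23% were called higher and 6.43% lower.

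Enzymes that work beside the battery were described from lists of their own. Over all 9374 tested genes 7.23% were called higher and 6.43% lower, and the median log2 ratio was -0.22. Of 5 partners of P450 enzymes 2 were called higher and 0 lower, with a median of 0.43: Ephx1, the microsomal epoxide hydrolase, was at 203 and 668 CPM (log2 ratio 1.72) and Cyb5a, cytochrome b5, at 610 and 1263 CPM (1.05). Por, the reductase that P450 enzymes depend on, was at 43.5 and 34.03 CPM. Of 19 aldehyde dehydrogenase genes 13 reached 5 CPM and Aldh3a1 was the only one called in either direction, with a list median of -0.35. Some of the others passed the size limit but did not have the same sign in all 4 sets. As Aldh3a1 was chosen on this contrast, its call does not set it apart from its family. Aldh3a2, the neighbour of Aldh3a1 in the family, which oxidises fatty aldehydes, was at 29.97 and 37.7 CPM.

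In the NRF2 list of 14 genes, which includes Nqo1, 12 reached 5 CPM, 10 had a positive and 2 a negative log2 ratio, and the median was 0.70. The 3 called higher were Hmox1, heme oxygenase, at 22.4 and 125 CPM (log2 ratio 2.43), Srxn1, sulfiredoxin, at 108 and 257 CPM (1.24), and Gsr, glutathione reductase, at 91.4 and 188 CPM (1.03). None was called lower. Over all 9374 tested genes 7.23% were called higher, and 3848 had a positive and 5526 a negative log2 ratio. As the list was chosen with earlier results of these data known and includes Nqo1, nothing is read from its counts. Nfe2l2, which encodes NRF2, was at 102 and 91.0 CPM. Which transcription factor acted on Aldh3a1 or Nqo1 was not measured here.

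**Figure D5:**
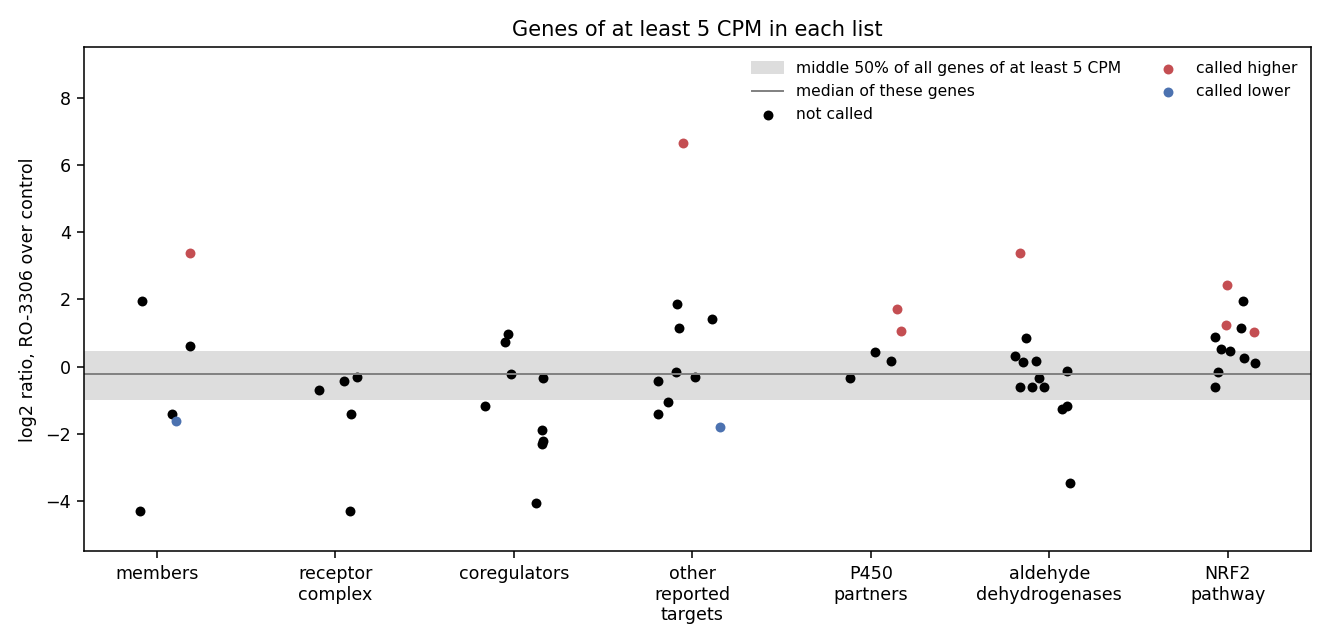
Log2 ratio of RO-3306 over control for each gene that averaged 5 CPM or more in the battery and in 6 related lists, some of which share genes. Points are genes, coloured by call, the line is the median of all 9374 genes (-0.22) and the band their middle 50% (-0.98 to 0.43). The NRF2 list has a median of 0.70 and the receptor complex one of -0.69.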

How the data were processed

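Each of the 96 files holds expected counts per gene for 1 cell, which the authors made with featureCounts 2.0.3 over GRCm39 RefSeq genes, per the file headers. Per the file headers, the counted feature was the whole gene with its introns, and multi-mapped reads were shared out as fractions. FastQC and STAR are named in the submitters' processing notes without a version. No strand or overlap option is given, so by default strand is ignored and reads over several genes are left out.

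Cells with at least 50000 counts and 1000 genes were kept (29 of 48 control, 37 of 48 RO-3306), and 0 of their 2145 pairs were identical. Counts were summed per treatment and scaled to CPM. The log2 ratio used a pseudocount of 1 CPM, which understates the change of low genes. Fractions were rounded for intervals and thinning, and for matched depth each cell was thinned to 639000 reads (percentile 10 of totals). A call needed a mean of at least 5 CPM, a log2 ratio of at least 1 in size and 1 sign in the 4 lettered sets. With 1 sample per treatment no test was run.

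The members and lists were chosen with earlier results of these data known, and some genes of the lists are not reported here. Named genes are all members, then, per list, called genes, at most 4 by mean CPM and the defining gene of a role, and the 3 genes most like each frequent member across cells. Doublets were not called, as every well received 1 sorted cell. mRNA lengths are those of the longest coding transcript in GENCODE M21, matched by symbol for 8838 of the tested genes (94.3%). Alternatives were TMM factors (edgeR 4.0.16), DESeq2 1.42.0 size factors, other pseudocounts, minimums and cell filters, leaving out each cell or set, and, chosen after seeing the data, a correction for mRNA length. The scripts were tested on simulated data. Python 3.11.15, numpy 2.4.6, pandas 2.3.3, scipy 1.17.1 and R 4.3.3 were used.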

Additional observations from a re-analysis of the deposited data

Results flagged for a closer look

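Libraries under the limits of 50000 counts or 1000 genes were left out of the comparison, and 2 genes of the battery gave a signal in those of RO-3306 that was absent in those of control. In the 11 RO-3306 libraries, with 1162603 counts in all, Aldh3a1 was at 645.5 CPM (exact 95% Poisson interval 600 to 693), from 750.5 counts in 3 libraries. Of these, 710.5 counts were in D4, with 874 genes and 184369 counts. Cyp1b1 was at 387.9 CPM (353 to 425), from 451 counts in 3 libraries, of which 449 were in D5, with 943 genes. The 19 control libraries, with 341166 counts in all, held 0 counts of either gene, which allows up to 8.79 CPM by the limit of 3 counts and 10.8 CPM by the exact interval. For Cyp1b1 this direction is opposite to that among kept cells. Each value rests mainly on 1 library, and none of these differences was tested. Nqo1 and Tiparp were higher in the control libraries left out: Nqo1 had 142.5 counts there, 114.5 of them in C9, a library of 11820 counts, against 5 counts in RO-3306, and Tiparp had 39 against 2.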

How the results depend on the processing

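Over 32 results 800 values were recomputed: 692 were labelled the same, 108 moved, and no called value changed sign. The same means within the counting or sampling interval of the main value or, for a number of called members, near that number. Such a counting interval leaves out the spread between cells. The 692 include all log2 ratios of Cyp1a1 and Ugt1a6a, which could not move because both genes had 0 counts. Aldh3a1 stayed called higher and Cyp1b1 called lower under the 16 alternatives in which all genes were called anew. After correction for mRNA length Cyp1b1 was at -0.78 and no longer reached the size limit, while Aldh3a1 was at 3.25. The number of members called higher was 2 (Aldh3a1 and Nqo1) with cells of at least 500000 counts and 3000 genes, 2 when cells were thinned before summing and 2 with no condition on the sets, and 3 without set C, which added Tiparp. The number called lower was 2 without set C, which added Ahr, and 3 with no condition on the sets, which added Ahr and Arnt. The log2 ratio ran from 3.18 to 3.61 for Aldh3a1, from -1.69 to -0.78 for Cyp1b1, from 0.29 (mean over cells of per-cell CPM) to 4.66 (thinned before summing) for Nqo1 and from -5.32 to -2.75 for Ahr, and Tiparp, which was not called, changed sign without set B (-0.12), without set D (-0.08) and without RO-3306 cell D6 (-0.17). Over all genes 678 were called higher and 603 lower. These were 880 and 450 with TMM factors and 907 and 438 with DESeq2 size factors, and 1141 and 2272 with no condition on the sets. These factors raised the median log2 ratio of all genes by 0.20 and 0.23, and the 7 members with counts kept their sign under both. Without sets A, B, C and D they were 1004 and 910, 1037 and 741, 849 and 1069, and 872 and 977. No paired analysis was possible because the numbers in the labels mark single cells and each treatment is 1 sample. Genes under 5 CPM, chiefly Ahrr, are limited by depth.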
